A study of Mus musculus with 4 samples.

Results

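The enzymes described here carry glucose carbon from its first phosphorylation to carbon dioxide: 14 genes of glycolysis, 7 of the pyruvate steps and 13 of the tricarboxylic acid (TCA) cycle, 34 in all. Their levels were read in the epigonadal white fat of fasted male mice, a visceral depot attached to the epididymis. Members were named by symbol, and a gene was represented by its brightest array probe that carries a single gene symbol. On that rule 31 of the 34 were measured, among 22180 genes in all; Gpi1, Aldoa and Eno1 had no probe with a single symbol and are not analysed here.

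Glycolysis splits glucose into pyruvate in the cytosol and yields the glycerol phosphate that fat cells need to store fatty acids. Pyruvate then becomes lactate, or enters mitochondria, where the pyruvate dehydrogenase complex turns it into acetyl-CoA and pyruvate carboxylase into oxaloacetate. The TCA cycle burns acetyl-CoA, but in fat it also exports citrate, the carbon source for fatty acid synthesis. Insulin promotes glucose use in fed fat, and in fasting the pyruvate dehydrogenase kinases hold the entry of pyruvate closed.

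The study has 4 groups with 1 array each. The Irs1/2-flox control carries floxed alleles of the insulin receptor substrates Irs1 and Irs2 and no Cre. LDKO adds an Albumin-Cre transgene to these alleles. The Irs1/2:FoxO1-flox control carries floxed Foxo1, a transcription factor that insulin restrains, besides floxed Irs1 and Irs2, and LTKO is that line with Albumin-Cre. All 4 groups were fasted males and all carry floxed Irs1 and Irs2. An age of 4 months is stated for LDKO and LTKO, and none for either control. The albumin promoter drives Cre in hepatocytes and not in fat cells. Whether the RNA of an array came from 1 mouse or from a pool is not stated. With 1 array per group no difference has an error or a test; differences are on the log2 scale, where 1 unit is 2-fold, and 1.5-fold was taken as the size worth counting.

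Adipoq, Plin1, Cidec and Fabp4, defining genes of fat cells, read between 9.56 and 13.09 log2 units on every array, far above the median gene at 5.15. Of the 31 measured members 30 had a mean at or above that median gene; the exception was the muscle-type phosphofructokinase Pfkm. Array-wide correlations across genes ran from 0.986 to 0.991. The Irs1/2-flox control array stood apart by its muscle and mesothelial genes and the LTKO array by epididymis, sperm and liver genes, with values given beside the results they touch.

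LDKO fat had higher levels of most of these enzymes than its own control. Of 31 members 26 were higher, where 50.1% of all genes were, and the median difference was 0.41 against 0.00 over all genes. At least 1.5-fold higher were 11 members, beside 2.01% of all genes, and none was 1.5-fold lower, beside 2.43%. Bright genes as a class stood the other way: of the 5545 brightest genes 38.6% were higher, and their median was −0.07. The excess lay in the pyruvate steps (median 0.56, 7 of 7 higher) and the TCA cycle (median 0.51, 12 of 13 higher), while glycolysis had a median of 0.15 with 7 of 11 higher.

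**Figure D1:**
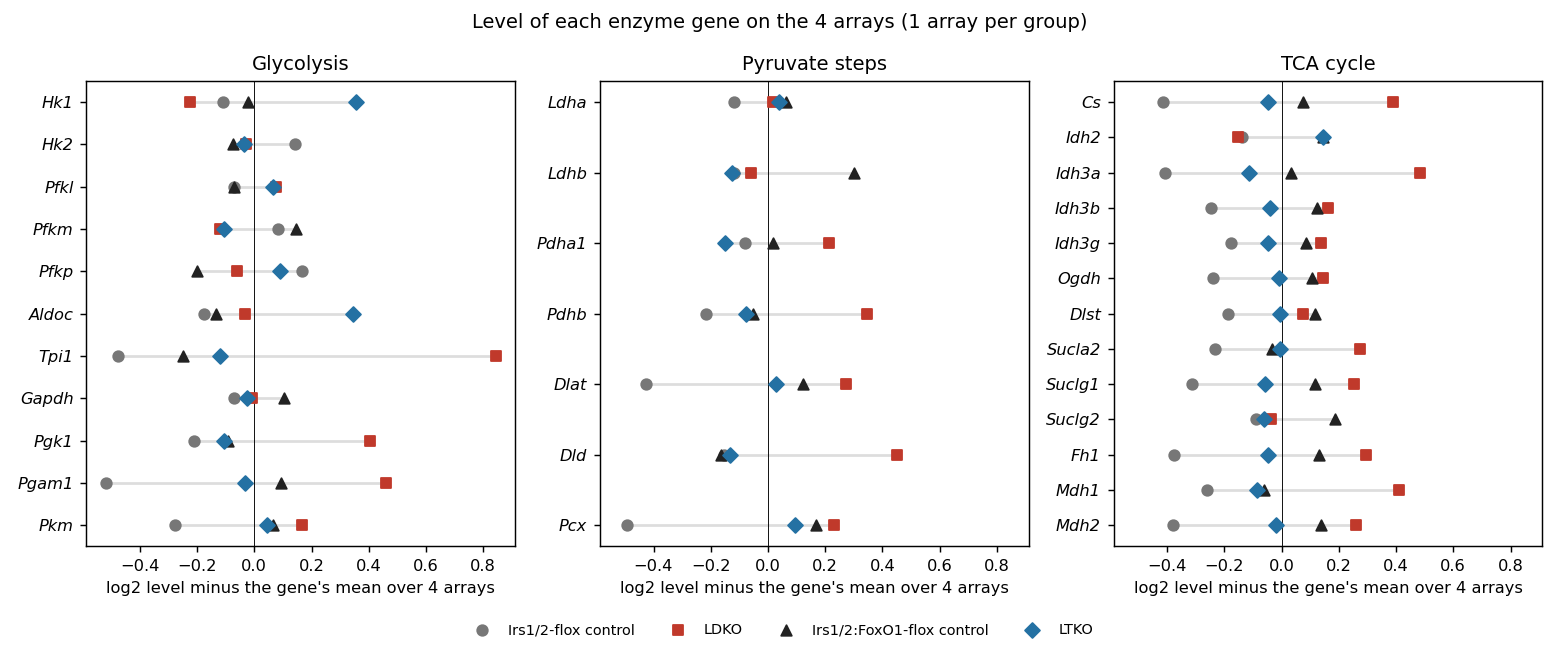
Each row is a measured enzyme gene and each marker an array; the horizontal axis is the log2 level minus that gene's mean over the 4 arrays. LDKO (squares) is the highest array and the Irs1/2-flox control (circles) the lowest for 10 of 13 TCA cycle genes, an order that Pfkl has too and Hk1, Hk2, Pfkm and Pfkp do not.

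Much of that distance lay in the Irs1/2-flox control array. Against the Irs1/2:FoxO1-flox control, LDKO had 23 of 31 members higher (50.3% of all genes), a median of 0.12, and 2 members at least 1.5-fold higher, Tpi1 and Dld (2.33% of all genes). These 2 were the members at least 1.5-fold above each control, beside 0.721% of all genes. The Irs1/2:FoxO1-flox control was itself above the Irs1/2-flox control at 28 of 31 members (50.8% of all genes). The median over the 31 was 0.26, with 2 members 1.5-fold higher (1.41%). All 13 TCA cycle genes were higher in that comparison of arrays without Cre, by 0.20 to 0.52. These comparisons share arrays, so each is given only by its own values. LDKO lay above both controls at 21 of 31 members, beside 35.2% of all genes and 23.6% of the 5545 brightest. The Irs1/2-flox control was the lowest array at 23 members, beside 23.7% of all genes. The order with LDKO highest and the Irs1/2-flox control lowest was found at 18 of 31 members, beside 9.22% of all genes.

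Other cell types also separated the control arrays. The summed linear level of 16 skeletal muscle markers in LDKO, the Irs1/2:FoxO1-flox control and LTKO was 0.594, 0.591 and 0.574 of that in the Irs1/2-flox control, and 13 of 16 were lower in LDKO than in that control, where 49.7% of all genes were lower. The same ratios were 0.588, 0.664 and 0.657 for 12 mesothelial markers, all of them lower in LDKO, and 0.793, 0.872 and 0.707 for 14 macrophage markers, of which 12 were lower. For 13 measured adipocyte markers the ratios were 1.08, 1.03 and 1.02. Of them 10 were higher in LDKO, where 50.1% of all genes were, and the median difference over the 13 was 0.08. The array with the most muscle, mesothelial and macrophage signal was thus the one with the lowest level of 12 of 13 TCA cycle genes, and the part of cell makeup in these differences was not tested. In whole tissue, fewer cells of a type and less RNA per cell cannot be told apart.

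Within glycolysis the median difference of LDKO from its control was −0.14 for 6 enzymes up to aldolase and 0.61 for 5 later ones. This split was made after the values were seen. In the paragraphs that follow, 4 values for a gene are log2 levels in the order Irs1/2-flox control, LDKO, Irs1/2:FoxO1-flox control, LTKO. The hexokinases Hk1 and Hk2 trap glucose in the cell, and the phosphofructokinases Pfkl, Pfkm and Pfkp commit it to breakdown. With the aldolase Aldoc, these genes differed in LDKO by −0.23 to 0.15. Of the 6, 4 were lower (49.7% of all genes), and against the other control 4 were higher (50.3%). Pfkp, the platelet-type isozyme, had the lowest difference of the division and read 8.30, 8.07, 7.93 and 8.22. It was highest in the Irs1/2-flox control and lowest in the other control, with both Cre lines between. Pfkm read 4.82, 4.62, 4.88 and 4.63, below the median gene, with both Cre lines below both controls by 0.19 to 0.27.

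The 5 measured enzymes from triose phosphate to pyruvate all stood higher in LDKO (50.1% of all genes), with a median difference from its control of 0.61. Against the other control 4 of the 5 were higher (50.3% of all genes). Tpi1, triose phosphate isomerase, which interconverts the products of the aldolase step, read 8.35, 9.67, 8.57 and 8.70. LDKO stood alone here, 1.32 above its own control (2.50-fold), 1.09 above the other control and 0.96 above LTKO, while the other arrays lay within 0.36 of each other. Tpi1 was the 26th highest of 22180 differences. The 10 measured coding genes next to it in order on chromosome 6, 5 per side, differed by −0.18 to 0.49. Highest of these were the genes directly beside Tpi1, Spsb2 at 0.48 and Usp5 at 0.49 (0.21 and 0.09 against the other control). Ptpn6, Eno2, Gnb3, P3h3 and Gpr162 were lower in LDKO than in its own control. Pgk1, phosphoglycerate kinase, which makes the first ATP of the pathway, read 8.10, 8.71, 8.22 and 8.20, so LDKO was again the single high array.

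Pgam1, phosphoglycerate mutase, read 6.70, 7.68, 7.31 and 7.19 by its brighter probe, with LDKO above its control by 0.98. Its dimmer probe gave −0.19 for the same comparison, so the direction depends on the probe. Pkm, pyruvate kinase, was 0.44 higher in LDKO, but 0.10 against the other control. Gapdh, the dehydrogenase in the middle of the pathway, differed by 0.06 in LDKO and by −0.13 in LTKO at its brightest probe. Its family of near-identical copies makes that value uncertain, and its other probes gave 0.14 and 0.36 in LDKO. The levels of Tpi1 and Gapdh, neighbours in the pathway, therefore differed unequally between LDKO and its control.

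The promoters of the members were searched for short elements, and 3 are printed to set promoters of genes that were and were not higher in LDKO side by side. They are the 250 bases before the start from RefSeq, build GRCm38.p6, written along the gene with matches to the GC box GGGCGG, an element bound by Sp1-family factors, in capitals (either strand). Tpi1 (chr6:124814159-124814408, minus strand) and Cs (chr10:128337477-128337726, plus strand) were higher in LDKO, and Hk2 (chr6:82774455-82774704, minus strand) was not.
Tpi1: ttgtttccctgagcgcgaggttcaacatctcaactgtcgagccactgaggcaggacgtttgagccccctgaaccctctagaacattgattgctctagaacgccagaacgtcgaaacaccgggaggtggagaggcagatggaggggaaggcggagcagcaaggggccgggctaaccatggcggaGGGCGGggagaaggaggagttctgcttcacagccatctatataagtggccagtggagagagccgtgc
Cs: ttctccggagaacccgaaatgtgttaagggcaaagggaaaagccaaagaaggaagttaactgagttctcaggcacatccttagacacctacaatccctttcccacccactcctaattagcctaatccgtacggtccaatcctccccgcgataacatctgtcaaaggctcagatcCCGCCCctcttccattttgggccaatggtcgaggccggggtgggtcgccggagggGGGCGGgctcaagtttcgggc
Hk2: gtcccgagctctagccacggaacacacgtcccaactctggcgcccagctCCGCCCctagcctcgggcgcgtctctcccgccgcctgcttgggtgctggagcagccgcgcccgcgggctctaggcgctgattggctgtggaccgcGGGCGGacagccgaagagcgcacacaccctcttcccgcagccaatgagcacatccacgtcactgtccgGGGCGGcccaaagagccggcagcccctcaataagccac
The table held promoters for 33 of the 34 members, with no entry for Idh3a. GGGCGG was found in 19 of 33 (57.6%) and in 32.9% of 27025 promoters of the same length. It was in 8 of the 10 promoters of members at least 1.5-fold higher in LDKO and in 10 of 20 of the other measured members. The median GC content of the windows was 59.2% for members and 52% over all promoters, and its part in the share of GGGCGG was not tested. The E-box CACGTG was in 3 of 33 (9.09%, all promoters 6.05%), the shorter ACGTG, which lies inside it, in 10 (30.3%, all promoters 16.6%), and the nuclear receptor element AAGGTCA in 1 (3.03%, all promoters 4.05%). The first-listed window was used for genes with several, and a match is a description of letters only.

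At the pyruvate steps the dehydrogenase complex and the carboxylase were higher in LDKO and the lactate dehydrogenases hardly so. Ldha and Ldhb, which interconvert pyruvate and lactate, were higher by 0.14 and 0.06. The 4 subunits of the pyruvate dehydrogenase complex among the members were all higher, by a median of 0.59. Pdha1 and Pdhb, the decarboxylase, were higher by 0.30 and 0.56, and Dlat, the acetyl transferase core, by 0.70. Dld, the dihydrolipoamide dehydrogenase that the complex shares with the 2-oxoglutarate dehydrogenase complex, was higher by 0.61. Pdhx, a component of the complex outside the membership, was higher by 0.56, and by 0.45 against the other control.

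Dlat read 7.76, 8.45, 8.30 and 8.21, so the Irs1/2-flox control was the low array and LDKO was only 0.15 above the other control. Dld read 10.26, 10.86, 10.25 and 10.28, which set LDKO apart from 3 nearly equal arrays, by 0.62 from the other control. Within the complex, Dld therefore separated LDKO from both controls at 1.5-fold and Dlat did so only from its own. Pcx, pyruvate carboxylase, which refills the cycle with oxaloacetate, read 9.20, 9.92, 9.86 and 9.79. Like Dlat it marked the Irs1/2-flox control as low, and it differed by 0.06 between LDKO and the other control. Ldhb read 6.53, 6.59, 6.95 and 6.52, with the Irs1/2:FoxO1-flox control as the high array.

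In the TCA cycle 5 of 13 genes were at least 1.5-fold higher in LDKO than in its control, beside 2.01% of all genes: Cs, Idh3a, Fh1, Mdh1 and Mdh2. Citrate synthase Cs, which joins acetyl-CoA to oxaloacetate, read 9.45, 10.25, 9.94 and 9.82. Its LDKO excess was 0.80 over its own control and 0.31 over the other. Idh3a, the catalytic subunit of the NAD-dependent isocitrate dehydrogenase, read 9.19, 10.08, 9.63 and 9.49. At 0.89 and 0.45 it was the TCA cycle gene furthest above its own control.

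The other subunits of that enzyme followed at smaller size, Idh3b by 0.41 and Idh3g by 0.31, and were within 0.06 of the Irs1/2:FoxO1-flox control. Idh2, the mitochondrial NADP-dependent isozyme that supplies NADPH, was the one member of the cycle not higher in LDKO, at 8.48, 8.47, 8.76 and 8.76. Here the arrays paired by floxed line and not by Cre, the Irs1/2:FoxO1-flox line lying above the Irs1/2-flox line by 0.28 without Cre and 0.29 with it.

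Further round the cycle, Ogdh and Dlst, subunits of the 2-oxoglutarate dehydrogenase complex, were higher in LDKO by 0.39 and 0.26, against 0.04 and −0.04 relative to the other control. Of the succinyl-CoA ligase subunits, the shared alpha subunit Suclg1 was higher by 0.57 and the ATP-forming beta subunit Sucla2 by 0.51. Sucla2 read 8.31, 8.82, 8.51 and 8.54, with LDKO alone high. The GTP-forming beta subunit Suclg2 read 9.06, 9.11, 9.34 and 9.09 by its brighter probe, with the Irs1/2:FoxO1-flox control alone high. Its dim second probe read 3.28, 3.57, 3.12 and 3.33, with that control lowest. It also turned the sign for LTKO (−0.25 and 0.21).

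Fumarase Fh1, which hydrates fumarate to malate, read 8.91, 9.59, 9.42 and 9.25. The mitochondrial malate dehydrogenase Mdh2 read 9.65, 10.30, 10.17 and 10.02. Its order was Irs1/2-flox control lowest, then LTKO, the other control and LDKO. In the cycle Cs, Idh3a, Idh3b, Idh3g, Ogdh, Suclg1, Fh1 and Mdh1 had the same order. So did Pgk1, Pkm, Pdhb, Dlat, Pcx and, by its brighter probe, Pgam1 in the other divisions. The cytosolic malate dehydrogenase Mdh1, a partner in shuttling reducing equivalents, read 9.90, 10.57, 10.10 and 10.08. It kept 0.47 over the other control where Mdh2 kept 0.12.

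**Figure D2:**
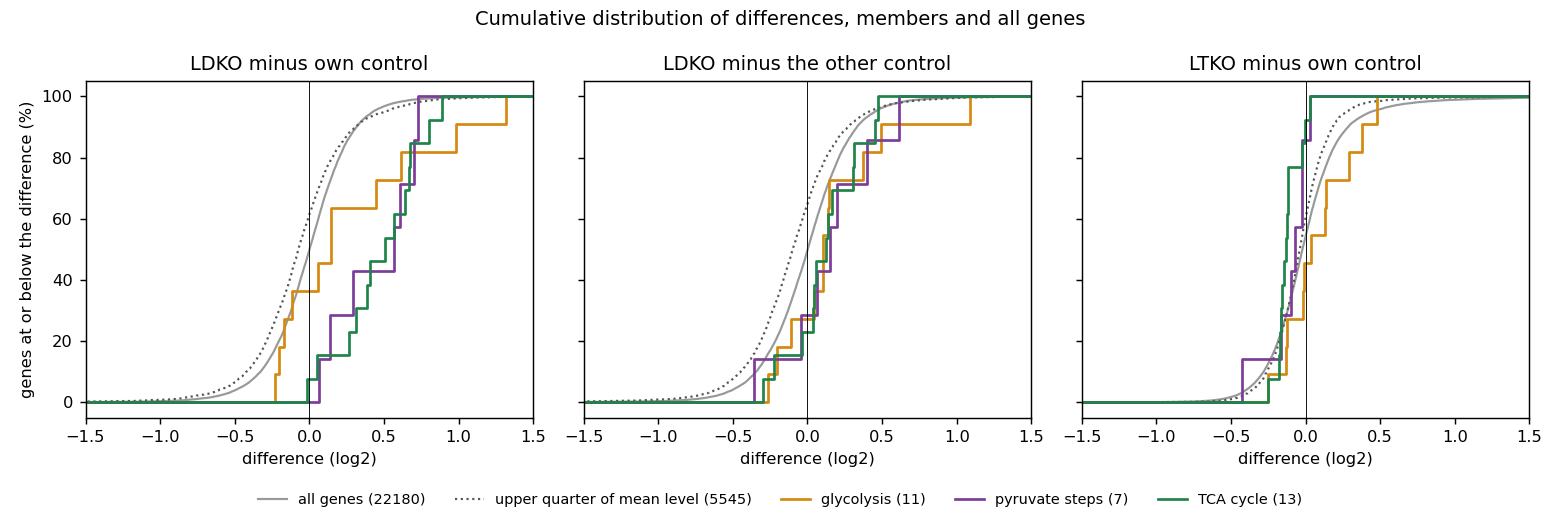
The vertical axis is the percentage of genes at or below the difference on the horizontal axis (log2), for all genes, the 5545 brightest genes and the 3 divisions, with the number of genes in parentheses. The pyruvate and TCA cycle curves lie well to the right of all genes for LDKO against its own control (medians 0.56 and 0.51), less so against the other control (0.15 and 0.12), and slightly to the left for LTKO (−0.07 and −0.13).

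LTKO fat showed no such excess over its own control. Of 31 members 23 were lower (54.3% of all genes), and the median over the 31 was −0.10 against −0.02 over all genes. None was 1.5-fold apart in either direction, beside 3.11% of all genes higher and 0.852% lower. Of the TCA cycle genes 12 of 13 were lower, but by small amounts, with a median of −0.13 and a range of −0.25 to 0.03. Pyruvate steps had a median of −0.07 with Ldhb lowest at −0.43, and Dld highest at 0.03. Against the Irs1/2-flox control the direction turned: all 13 TCA cycle genes were higher in LTKO (49.1% of all genes), by a median of 0.23.

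In glycolysis the members furthest above the LTKO control were Aldoc at 0.48, Hk1 at 0.38 and Pfkp at 0.29. Aldoc, the brain-type aldolase, read 5.10, 5.25, 5.14 and 5.62, and LTKO was the single high array. Hk1, which was 0.11 lower in LDKO, was likewise highest in LTKO. Of the 12 measured epididymis and sperm markers 11 were higher in LTKO than in its control (45.6% of all genes), with a median of 2.23, with Gpx5 from 2.97 to 8.28 and Lcn9 from 4.62 to 7.80; their part in these values was not tested. The summed level of these markers in LDKO, the Irs1/2:FoxO1-flox control and LTKO was 0.982, 1.21 and 1.60 of that in the Irs1/2-flox control, a sum that Odf1, between 10.31 and 10.66 on every array, dominates.

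Germ cell isozymes of glycolysis, made in the testis, stood out on the same array. Gapdhs read 4.62, 4.61, 4.52 and 6.38, Ldhc 4.05, 4.03, 3.94 and 5.36, and Pgk2 3.06, 3.04, 2.85 and 4.04. They were higher in LTKO than in its control by 1.86, 1.42 and 1.19, and their levels on the other arrays were within 0.21 of each other. Their somatic counterparts Gapdh, Ldha and Pgk1 differed there by −0.13, −0.02 and −0.01. Of the 12 measured isozymes outside the membership 5 were at least 1.5-fold higher in LTKO (3.11% of all genes), the others being Ldhal6b and Pgam2 at 0.65 each, and none was 1.5-fold apart in LDKO (2.01% of all genes higher, 2.43% lower).

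**Figure D3:**
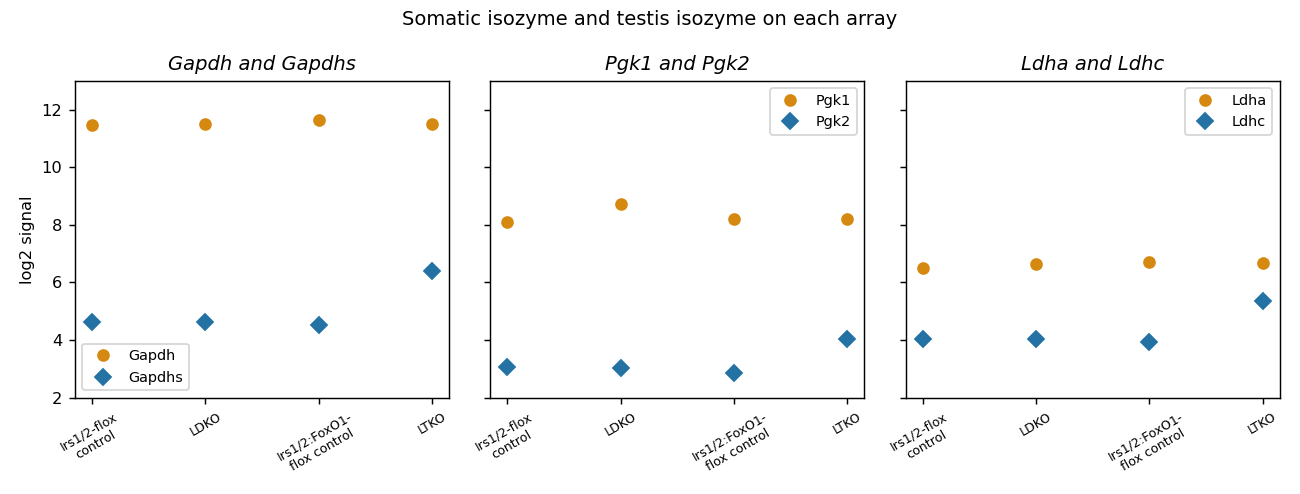
Log2 signal of a somatic enzyme gene (circles) and its testis isozyme (diamonds) on each of the 4 arrays. The testis isozymes are higher on the LTKO array than on the others, Gapdhs at 6.38 against at most 4.62 elsewhere. Pgk2, at 4.04 on that array, stays below the median gene at 5.15. In LTKO, Gapdh, Pgk1 and Ldha differ from its control by −0.13 to −0.01.

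Set side by side, the effect of the Cre line was lower in LTKO than in LDKO at 26 of 31 members (51.4% of all genes). The median over the 31 was −0.49, and the effect was at least 1.5-fold lower at 12, beside 4.96% of all genes. The medians were −0.58 for the pyruvate steps, −0.57 for the TCA cycle and −0.05 for glycolysis. The members with the lowest values were Tpi1 at −1.19, Pgam1 at −1.11 (0.23 by its dimmer probe) and Idh3a at −1.04. The highest was Pfkp at 0.52. No test of this difference is possible with 1 array each, and it contains the difference between the controls. LTKO set directly against LDKO was lower at 25 of 31 members (50.8% of all genes), with a median over the 31 of −0.19. At least 1.5-fold lower there were 3 members, Tpi1 at −0.96, Idh3a at −0.60 and Dld at −0.59, beside 2.24% of all genes. The members that kept their distance from LTKO and from both controls were thus few, and Tpi1 was the one furthest from each.

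**Figure D4:**
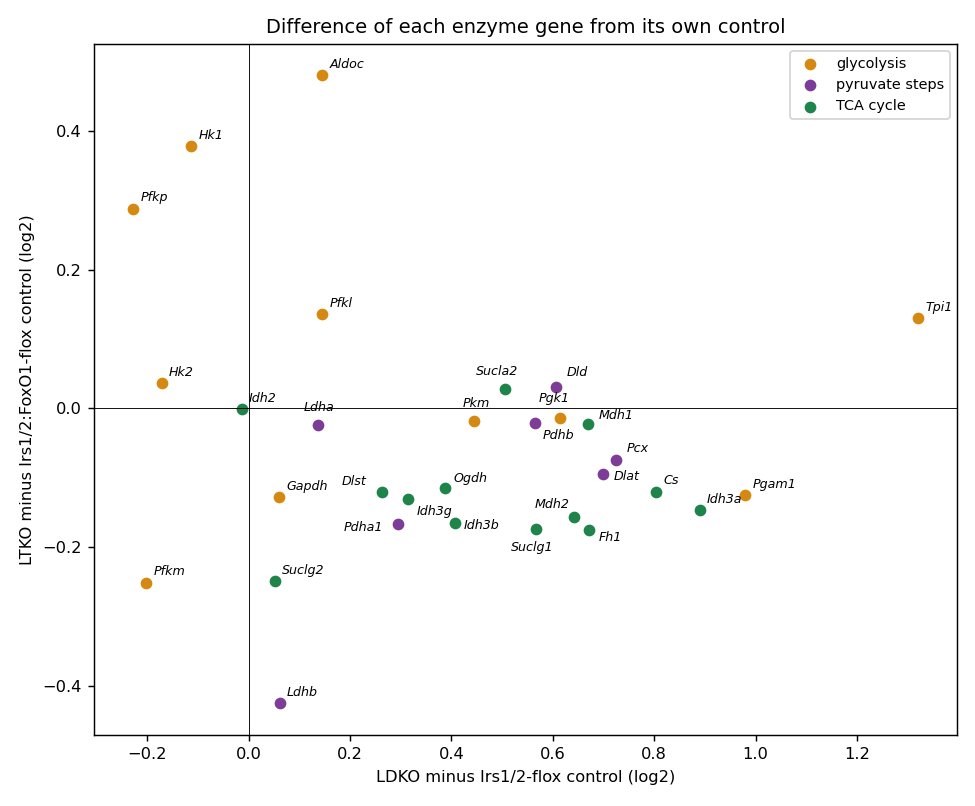
Each point is a measured enzyme gene, with its difference from its own control in LDKO on the horizontal axis and in LTKO on the vertical axis (log2). Points spread to the right along the zero line, from −0.23 to 1.32 in LDKO, with Tpi1 furthest out, while LTKO differences stay between −0.43 and 0.48.

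Among genes that control the pyruvate entry, Pdk2 and Pdk4 were lower in LDKO and Mpc1 was higher. Pdk4, the kinase that shuts pyruvate dehydrogenase in fasting, read 11.26, 10.62, 11.39 and 11.48, and Pdk2, its widely expressed relative, 9.37, 8.61, 9.57 and 9.19. LDKO was the low array for both, under its own control by 0.64 and 0.76 and under the other control by 0.77 and 0.96. Mpc1, a subunit of the mitochondrial pyruvate carrier, read 10.62, 11.36, 11.04 and 11.03, higher in LDKO by 0.74 and 0.32 against the 2 controls. The remaining kinases did not follow Pdk2 and Pdk4. Pdk1 read 6.62, 6.92, 7.21 and 7.08, so LDKO lay above its own control and below the other. Pdk3 read 6.16, 6.11, 6.06 and 6.29, with LDKO between the controls. The phosphatase subunit Pdp1 read 7.28, 7.01, 7.01 and 7.09, with the Irs1/2-flox control as the high array. The phosphatase subunit Pdp2 was 0.65 lower in LTKO than in its control. Of the 11 measured genes of this list 6 were higher in LDKO (50.1% of all genes), with a median over the list of 0.14. At least 1.5-fold higher in LDKO was 1 and lower were 2 (2.01% and 2.43% of all genes), and in LTKO 0 and 1 (3.11% and 0.852%).

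Among genes of glucose and lactate transport and glycolytic control, 1 of 10 was at least 1.5-fold higher in LDKO, beside 2.01% of all genes. It was the insulin-responsive glucose transporter Slc2a4, at 7.0, 8.04, 7.40 and 6.95. It was 1.03 above its own control and 0.63 above the other, and LTKO was 0.45 below its control. The monocarboxylate transporter Slc16a7 was 0.58 higher in LDKO, and Slc2a1 and Slc16a1, the basal glucose and lactate transporters, were 0.27 and 0.26 lower.

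A list of related genes outside the membership held the succinate dehydrogenase subunits and assembly factors, the cytosolic enzymes Aco1 and Idh1, and Ogdhl and Csl. It had a median of 0.38 in LDKO (0.00 over all genes). At least 1.5-fold higher were 3 of 11, Aco1, Idh1 and Sdhb, beside 2.01% of all genes. Aco1, the cytosolic aconitase and iron sensor, read 8.28, 9.24, 9.09 and 8.73, with the Irs1/2-flox control as the low array. Idh1, the cytosolic NADP-dependent isocitrate dehydrogenase, read 9.03, 9.86, 9.31 and 9.16, with LDKO as the high array. Succinate dehydrogenase, which is also respiratory complex II, was higher in all 4 subunits, by 0.38 for Sdha to 0.62 for Sdhb, and Sdhc, at 0.57, was 0.66 above the other control.

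Exchange of carbon between mitochondria and cytosol held larger differences. The dicarboxylate carrier Slc25a10 read 5.68, 7.75, 6.02 and 5.93, and the alanine aminotransferase Gpt, which links alanine to pyruvate, 4.98, 6.72, 5.27 and 5.36. Both set LDKO apart from the other 3 arrays, by at least 1.73 and 1.36. The glycerol phosphate dehydrogenase Gpd1 read 9.53, 10.72, 10.25 and 10.25, with the Irs1/2-flox control low as well. Fbp2, a fructose bisphosphatase, read 6.07, 6.09, 5.54 and 6.98, 1.45 higher in LTKO. Fbp1 and G6pc were 1.05 and 0.64 higher in LTKO than in its control. On that array 9 of 12 liver markers and 10 of 12 epididymis and sperm markers were at least 1.5-fold higher (3.11% of all genes). The part of such tissue in these values was not tested. Of the 19 genes of gluconeogenesis and exchange, 6 were at least 1.5-fold higher and 1 lower in LDKO (2.01% and 2.43% of all genes), and 3 were higher and 0 lower in LTKO (3.11% and 0.852%).

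**Figure D5:**
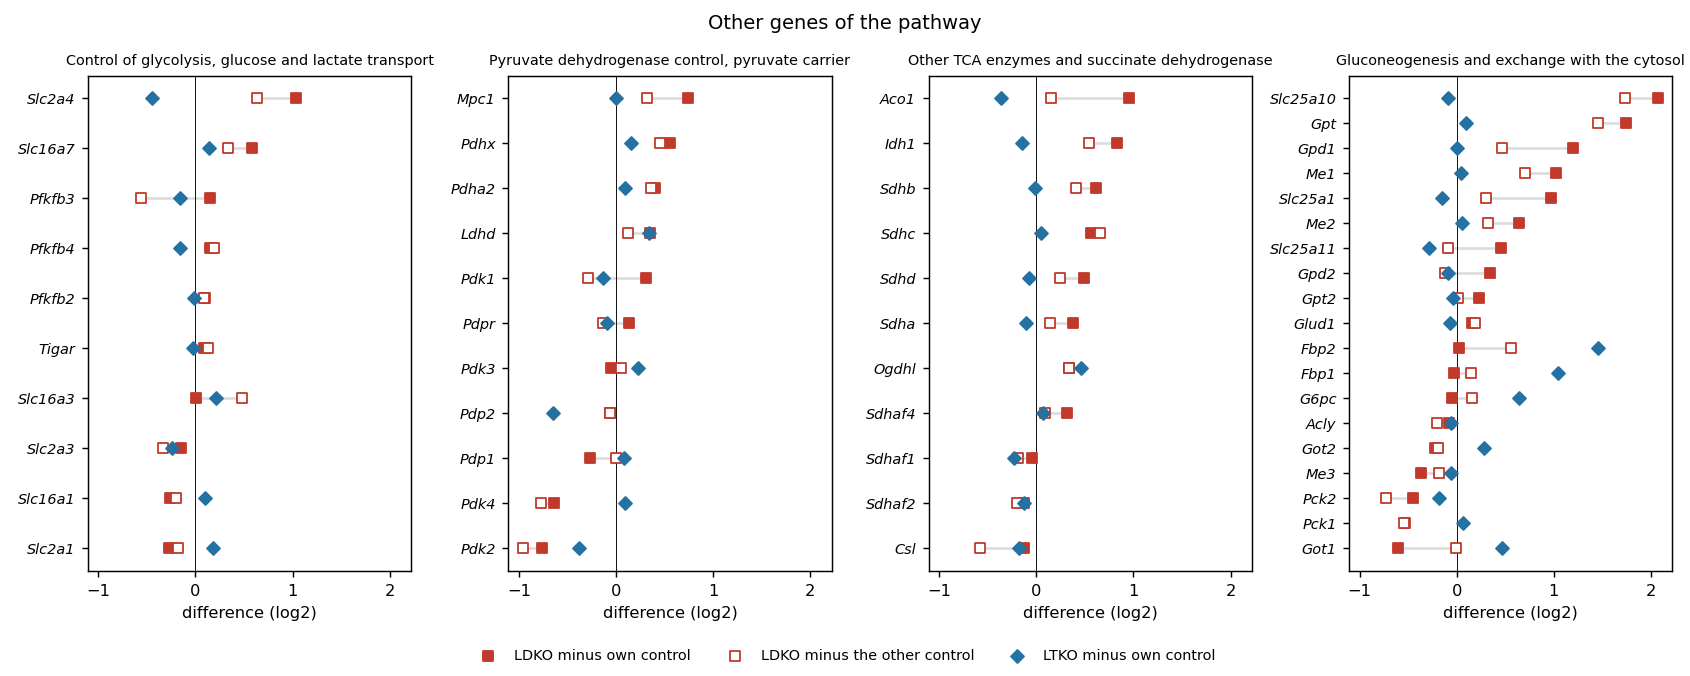
Differences (log2) of other genes of the pathway, in 4 lists: LDKO minus its own control (filled squares), LDKO minus the other control (open squares) and LTKO minus its own control (diamonds). Slc25a10 and Gpt lie at 2.07 and 1.74 for LDKO, and Pdk2 and Pdk4 at −0.76 and −0.64.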

How the data were processed

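Signals deposited by the authors are on the log2 scale, 1 per probe set, from RMA in Affymetrix Expression Console, per the submitters' processing notes. No source used here gives versions or the set of arrays normalized together. RMA removes shifts shared by all genes and compresses differences of dim probes. Arrays have no read depth; precision is limited by the number of arrays.

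Of 41345 probes, 23521 have 1 gene symbol, 1814 several and 16010 none here. Symbols were updated by gene identifier to GRCm38.p6, which held 23328 of them, giving 22180 genes, each by its brightest probe. Members and lists were chosen with earlier results of these data known. With 1 array per group there was no test; 1.5-fold was the size counted, beside the share of all genes. Full values are given for members 1.5-fold apart, the extremes of each division and members whose probes disagree in sign. For other lists they are given for up to 4 genes furthest apart. Pdk1, Pdk3 and Pdp1 are given besides, to stand next to Pdk2 and Pdk4. The lists are adipocyte, skeletal muscle, macrophage, mesothelial, epididymis and sperm, liver and brown fat markers, and 5 of pathway genes. Some list members, such as Slc2a4 and Gpd1, stand in more than 1 list. Steps were tested on simulated data. Python 3.11.15, numpy 2.4.6, pandas 2.3.3, statsmodels 0.14.6 and matplotlib 3.10.9 were used. Alternatives were fold thresholds, probe averaging, scaling, reference array, summary, filters and members left out.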

Additional observations from a re-analysis of the deposited data

Results flagged for a closer look

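The direction of the median difference from the own control was opposite in LDKO and LTKO for the pyruvate steps (0.56 and −0.07) and the TCA cycle (0.51 and −0.13). The median difference of effects, LTKO minus LDKO, was −0.58 and −0.57. The difference between the lines was not tested, since each has 1 array.

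Single members with opposite directions whose effects lay at least 1.5-fold apart were led by Pgam1 at −1.11 (0.23 by its dimmer probe). Next were Idh3a at −1.04, Cs at −0.92, Fh1 at −0.85, Mdh2 at −0.80, Pcx at −0.80 and Dlat at −0.79. Suclg1 at −0.74, Mdh1 at −0.69, Pgk1 at −0.63 and Pdhb at −0.59 followed. None of these was tested, and the LTKO part of each was at most 0.18 in size.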

How the results depend on the processing

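With 1 array per group the spread between replicates is unknown. No division median changed sign under repeated normalization, a loess curve removed, centring, probe averaging, the mean, the filter or members left out. Under these the LDKO medians ran from 0.43 to 0.64 for pyruvate steps, 0.46 to 0.58 for the TCA cycle and 0.10 to 0.27 for glycolysis.

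Medians changed sign only with another reference array. With the other control as reference the LDKO medians were 0.15 for pyruvate steps and 0.12 for the TCA cycle. There 2 members were 1.5-fold higher instead of 11, beside 2.33% and 2.01% of all genes. With the mean of both controls 4 were, a count given here without the share of all genes. The LTKO medians became 0.14 and 0.23 against the other control, with 1 of 31 members 1.5-fold higher, beside 563 of 22180 genes. They were 0.061 and 0.073 against the mean of both. The difference of effects reversed with exchanged controls, to 0.21 for pyruvate steps, 0.17 for the TCA cycle and 0.078 for glycolysis. There 2 members were 1.5-fold lower, again given without the share of all genes. Exchanging the controls counts the control difference with the opposite sign. LTKO directly against LDKO gave −0.24 and −0.28, with 3 members at least 1.5-fold lower (2.24% of all genes).

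At 2-fold and 1.2-fold, 1 and 19 of 31 members were higher in LDKO, beside 74 and 3052 of all 22180 genes. In LTKO 3 members were higher at 1.2-fold, beside 2497 of all genes. In the comparison of the controls 0 and 15 were higher, beside 33 and 2830. A lower effect in LTKO was found at 3 and 22 members, beside 160 and 4804 of all genes. Between the controls the 2 members became 1 with probe averaging, repeated normalization, a loess curve removed or centring. Of 66 recomputed differences of the 11 leading members 49 stayed within 0.187 of the value given (the SD over all genes of the difference between the controls, divided by the square root of 2), and Pgam1 in LDKO was at 0.40 with its probes averaged. No paired analysis was possible because each group has 1 array. Detection over background was not measured here.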

Other observations

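Brown fat markers did not move as a block. Of 8 measured genes 5 stood above the own control in LDKO, with a median over the list of 0.34, beside 50.1% of all genes, and 7 (50.8% of all genes) were higher in the Irs1/2:FoxO1-flox control than in the Irs1/2-flox control, with a median of 0.37. The lipid droplet gene Cidea read 5.97 in the Irs1/2-flox control and 7.43, 7.22 and 6.93 in LDKO, the other control and LTKO. The uncoupling protein Ucp1 lay near the median gene, between 4.83 and 5.80, and was 0.41 lower in LDKO. Ppargc1a, a coactivator that drives mitochondrial genes, was 0.48 lower in LDKO than in its control and 0.87 lower than in the other control, on the array where most TCA cycle genes were highest.

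Liver markers were not raised in LDKO as a list, with a median of 0.05 and 1 of 12 at least 1.5-fold higher, Alb at 0.60 (2.01% of all genes). In LTKO 9 of 12 were (3.11% of all genes), and the median of the list was 0.96. Cyp2e1 and Hp, which fat is also known to express, read between 10.74 and 13.14 on every array.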
